A study of Mus musculus with 12 samples.

Results

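The 10 genes followed here belong to the Notch pathway and were measured by RNA-seq in mouse palatal mesenchyme cells. They are the 4 receptors *Notch1* to *Notch4*, the ligands *Jag1* and *Jag2*, and the target genes *Hes1*, *Hey1*, *Hey2* and *Heyl*. They were taken by name, and all 10 were found among the 51490 genes of the deposited table. The cells were iMEPM cells, an immortalized line of mouse embryonic palatal mesenchyme derived from a *Cdkn2a*-/- embryo, so that every group lacks *Cdkn2a*. They stably carried either a scramble shRNA (scramble) or an shRNA against the 3’ UTR of *Srsf3* (shSrsf3), a splicing factor of the SR family, and were either not stimulated (-PDGF-AA) or exposed for 1 hr to PDGF-AA (+PDGF-AA), a ligand of the receptor PDGFRα, at 10 ng/mL. With and without ligand refers to PDGF-AA throughout. This gave 4 groups, scramble -PDGF-AA, shSrsf3 -PDGF-AA, scramble +PDGF-AA and shSrsf3 +PDGF-AA, with n = 3 biological replicates in each. Lentiviral integration, puromycin selection and sorting for GFP preceded the experiment, cells were starved of serum before stimulation, and the lines were used between passages 9 and 20. Each shRNA was represented by 1 cell line, so that an effect of the shRNA and a difference between these lines cannot be told apart.

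Notch receptors are single-pass membrane proteins that are activated by ligands of the Jagged and Delta families on a neighbouring cell. Ligand binding permits cleavage by an ADAM protease and then by γ-secretase, and the released intracellular domain joins the DNA-binding protein Rbpj and a Mastermind coactivator to switch on transcription. The Hes and Hey genes, which encode basic helix-loop-helix repressors, are the best known direct targets, and *Jag2* and Notch signaling are known for their part in development of the palate.

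On GRCm39, the receptor genes lie at chr2:26347915-26406675 (*Notch1*), chr3:97920800-98057677 (*Notch2*), chr17:32339794-32385893 (*Notch3*) and chr17:34783220-34807477 (*Notch4*). The ligand genes lie at chr2:136923373-136958693 (*Jag1*) and chr12:112871421-112893437 (*Jag2*). The target genes lie at chr16:29882134-29886643 (*Hes1*), chr3:8726956-8732385 (*Hey1*), chr10:30708350-30718828 (*Hey2*) and chr4:123127349-123143682 (*Heyl*). Of the sequences of 31 bases in their transcripts, 4.10% of those of *Notch2* and 1.33% of those of *Notch3* also occurred in another gene (*Gm42820* and *Gm30232*), while the other 8 shared none. Reads of the family members were therefore separable from each other at this length.

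Rbpj is known to bind DNA at TGGGAA, most often as the longer GTGGGAA. Both were searched on both strands of the 300 bases from 250 before to 50 after the start of the main annotated transcript. GTGGGAA occurred once each in the windows of *Hes1*, *Hey1* and *Hey2*, and neither motif occurred in those of the other 7 genes. For comparison, 6.35% of the windows of 21770 protein-coding genes held GTGGGAA and 25.9% held the shorter TGGGAA, which GTGGGAA contains. The stretches around each match are given because these genes are the 3 targets that could be tested. They read 5′ to 3′ along the gene, with capitals for TGGGAA or, where it lies on the opposite strand, TTCCCA, and only the second *Hes1* stretch lacks the longer form. A match is a description of the letters and not of binding.
Hes1, chr16:29884066-29884095, plus strand: tgaaagttactgTGGGAAagaaagtttggg
Hes1, chr16:29884080-29884109, plus strand: ggaaagaaagttTGGGAAgtttcacacgag
Hey1, chr3:8732474-8732503, minus strand: ggcgccggcactTTCCCAcggcccgcggcg
Hey2, chr10:30718969-30718998, minus strand: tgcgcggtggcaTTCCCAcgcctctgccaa

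The total count per sample was between 30958870 and 76123207, and the 3 shSrsf3 +PDGF-AA samples were among the shallower ones, with at most 37334636. Of the 51490 genes, 15037 passed the filter on low counts (at least 0.198 CPM in 3 samples) and were tested with edgeR's quasi-likelihood test, in 1 model of the 4 groups. *Srsf3* was lower in shSrsf3 samples, and its log2 (fold change) was -0.34 in the absence and -0.43 in the presence of PDGF-AA. These are RNA values, while the study measured the knockdown as protein by western blot. Of the sequences of 31 bases of *Srsf3*, 12.4% also occur in other genes. Of 12 markers of palatal mesenchyme, 10 passed the filter, while *Tbx22* had no count. The summed level of these markers in CPM (counts relative to the TMM-scaled library size) was 35259 to 37045 in scramble and 31527 to 33813 in shSrsf3 samples. *Col1a1* alone had a mean of 18235 CPM in scramble -PDGF-AA samples. Endothelial markers, of which 5 of 10 passed, summed to 33.5 to 37.7 CPM in scramble and 19.7 to 23.6 CPM in shSrsf3 samples. *Tek* made up most of this sum, and *Tie1*, *Sox17* and *Cldn5* had no count in any sample. Of 8 markers of mural cells 6 passed, with 6669 to 7738 CPM in scramble and 5862 to 6358 CPM in shSrsf3 samples. Of 4 neural and Schwann cell markers 3 passed, with 28.9 to 32.3 CPM in scramble and 20.5 to 25.1 CPM in shSrsf3 samples, and *Sox10* was at 0. Epithelial markers (3 of 7 passed) summed to 4.81 to 6.18 CPM in scramble and 2.94 to 4.15 CPM in shSrsf3 samples. Blood markers (2 of 3) stayed at or below 2.34 CPM and skeletal muscle markers (0 of 3) at or below 0.0518 CPM. Fewer cells that express a gene and less RNA per cell cannot be told apart in these bulk samples.

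The 10 genes spanned several orders of magnitude. Levels were compared between genes per length, as CPM per kb of the longest protein-coding transcript. In scramble -PDGF-AA samples, *Jag1* stood highest with 18.3 ± 1.18 CPM per kb (SD, n = 3), followed by *Hes1* with 17.8 ± 0.909 CPM per kb, and the samples of the pair overlapped. *Notch2* came next with 13.3 ± 0.836 CPM per kb, the highest level of the receptors. *Hey2* (3.12 ± 0.216 CPM per kb) and *Notch3* (2.79 ± 0.338 CPM per kb) overlapped, and *Notch1* followed with 2.12 ± 0.289 CPM per kb. *Hey1* was at 0.122 ± 0.0316 CPM per kb. *Notch4* (0.0463 ± 0.0101 CPM per kb), *Jag2* (0.0193 ± 0.0230 CPM per kb) and *Heyl* (0.00364 ± 0.00631 CPM per kb) were the lowest, and each overlapped its neighbour in this order. With the union of all annotated exons as the length, *Notch3* (2.50 CPM per kb) stood above *Hey2* (1.64 CPM per kb) and *Jag1* no longer overlapped *Hes1*.

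**Figure D1:**
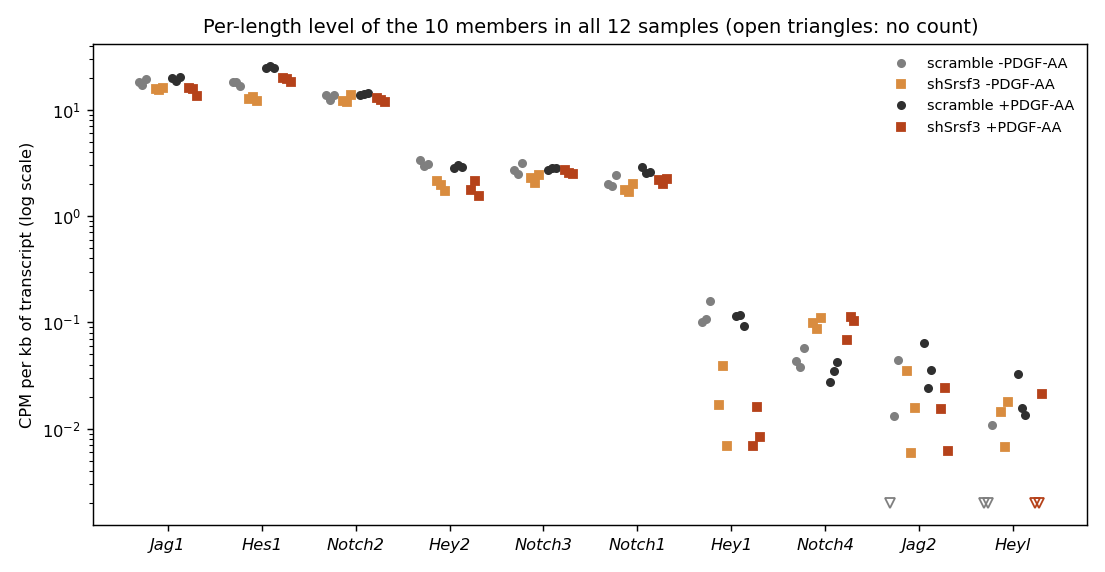
Level of the 10 genes in all 12 samples as CPM per kb of transcript on a log scale, in the order of their level in scramble -PDGF-AA samples. Each point is 1 sample, colours and shapes mark the groups, and open triangles at the foot mark samples without a count. *Jag1*, *Hes1* and *Notch2* lie above 10 CPM per kb in every sample, and *Hey1*, *Notch4*, *Jag2* and *Heyl* lie below 1.

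Among the low genes, without ligand, *Notch4* (0.0981 ± 0.0112 CPM per kb) stood above *Hey1* (0.0209 ± 0.0165 CPM per kb) with no overlap in shSrsf3 samples, the reverse of their order in scramble samples. In scramble +PDGF-AA samples, *Hes1* was the highest with 24.97 ± 0.755 CPM per kb and did not overlap *Jag1* at 19.6 ± 0.716 CPM per kb.

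The comparison of shSrsf3 with scramble samples asks which genes depend on Srsf3 with and without PDGFRα signaling. Among the receptors, *Notch4* was higher in shSrsf3 samples in both conditions, and the 3 more abundant receptors were lower in at least 1 of them. *Notch4*, a receptor best known from endothelium, measured 0.286, 0.253 and 0.381 CPM in scramble -PDGF-AA samples and 0.647, 0.577 and 0.725 CPM in shSrsf3 -PDGF-AA samples. With ligand it measured 0.183, 0.230 and 0.278 CPM in scramble samples and 0.454, 0.743 and 0.676 CPM in shSrsf3 samples. Every shSrsf3 sample was above every scramble sample in both conditions. The log2 (fold change) was 1.04 (SE 0.277, adjusted p = 0.00732) without ligand and 1.42 (SE 0.293, adjusted p = 0.00159) with ligand. These rest on few reads, between 11 and 50 per sample. From the summed counts, the ratio of shSrsf3 to scramble was 2.02 (95% interval from 1.42 to 2.91) without and 2.66 (from 1.77 to 4.03) with ligand, intervals that cover counting error only. Without 3 scramble libraries with the lowest share of mapped reads, which leaves 1 scramble -PDGF-AA sample assumed to vary like the rest, the value without ligand was 0.75 (adjusted p = 0.179). The endothelial markers did not share 1 direction without ligand. *Cdh5* (scramble mean 0.274 CPM, shSrsf3 mean 1.37 CPM), *Kdr* (0.251 against 0.623 CPM), *Emcn* and *Esam* were higher on average after knockdown. *Tek* (30.6 against 20.0 CPM), *Erg* (3.30 against 0.441 CPM) and *Pecam1* were lower on average. *Tie1*, *Sox17* and *Cldn5* had no count. The part of these markers in the *Notch4* result was not tested.

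*Notch1* measured 19.1, 18.02 and 23.2 CPM in scramble samples and 16.8, 15.9 and 19.01 CPM in shSrsf3 samples without ligand, where the groups overlapped. With ligand, the 3 scramble samples were at 27.6, 24.3 and 24.8 CPM and the 3 shSrsf3 samples at 20.8, 18.8 and 21.1 CPM, all of them below. The log2 (fold change) was -0.24 (SE 0.0918, adjusted p = 0.0481) without and -0.34 (SE 0.0918, adjusted p = 0.00951) with ligand. The call without ligand was lost in 8 of 12 fits that each left out 1 sample: scramble -PDGF-AA replicate 1 or 3, shSrsf3 -PDGF-AA replicate 1 or 2, scramble +PDGF-AA replicate 3, or any shSrsf3 +PDGF-AA sample. The adjusted p of these fits was between 0.0524 and 0.310, and the value without scramble -PDGF-AA replicate 3 was -0.10. It was also lost with RLE size factors (adjusted p = 0.0581), with the 6 samples alone (0.0961), at equal depth (0.0570) and with DESeq2 (0.0561).

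*Notch2*, the most abundant receptor, measured 145, 129.9 and 145 CPM in scramble -PDGF-AA samples and 126, 124 and 146 CPM in shSrsf3 -PDGF-AA samples. These groups overlapped, and the log2 (fold change) of -0.09 (SE 0.0617, 95% interval from -0.22 to 0.04) did not pass the test (adjusted p = 0.265). Without shSrsf3 -PDGF-AA replicate 3, the highest of its group, it was -0.16 (adjusted p = 0.0332). With ligand, scramble samples were at 145, 147 and 150.01 CPM and shSrsf3 samples at 135, 129.6 and 124 CPM, with no overlap and a log2 (fold change) of -0.19 (SE 0.0619, adjusted p = 0.0258). That call was lost without scramble +PDGF-AA replicate 3 (adjusted p = 0.0760), shSrsf3 +PDGF-AA replicate 2 (0.0617) or shSrsf3 +PDGF-AA replicate 3 (0.111).

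*Notch3*, the receptor of mural cells in blood vessels, showed the opposite order of calls. It measured 21.9, 20.1 and 25.5 CPM in scramble samples and 18.5, 16.6 and 19.8 CPM in shSrsf3 samples without ligand, a log2 (fold change) of -0.31 (SE 0.0788, adjusted p = 0.00588). With ligand, it measured 22.1, 23.002 and 22.8 CPM in scramble samples and 21.7, 20.4 and 19.9 CPM in shSrsf3 samples, with a value of -0.13 (SE 0.0799, 95% interval from -0.30 to 0.04, adjusted p = 0.219). No sample overlapped in either condition. Whether the difference itself changed with ligand is given by the interaction below, which did not pass. The mural markers did not share 1 direction. Their sum, which was lower in shSrsf3 samples, was mostly *Acta2* (a mean of 7157 CPM in scramble samples and 5766 CPM in shSrsf3 samples without ligand), and *Rgs5* also had a lower mean (0.559 and 0.321 CPM). The means of *Cspg4* (75.7 and 164 CPM), *Cnn1* (128 and 249 CPM), *Myh11* (4.70 and 10.2 CPM) and *Des* (0.148 and 0.348 CPM) were higher in shSrsf3 samples. Each of these 6 had the same direction with ligand, and their part in the *Notch3* result was not tested.

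*Jag1*, the main ligand expressed here, was lower in shSrsf3 samples in both conditions. It measured 105, 98.4 and 112 CPM in scramble samples and 89.1, 87.3 and 92.3 CPM in shSrsf3 samples without ligand, and the 3 scramble samples were all higher. With ligand, it measured 114, 108 and 115 CPM in scramble samples and 91.1, 90.4 and 77.4 CPM in shSrsf3 samples, again without overlap. The log2 (fold change) was -0.23 (SE 0.0622, adjusted p = 0.00746) without and -0.38 (SE 0.0626, adjusted p = 2.69e-04) with ligand, or 0.850 and 0.768 times the scramble level. Both stayed under the 2-fold minimum that defines a DE gene in the study's methods.

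*Jag2* was close to the limit of detection and did not pass the filter. It had 0, 3 and 14 counts in scramble -PDGF-AA, 14, 2 and 3 in shSrsf3 -PDGF-AA, 20, 7 and 12 in scramble +PDGF-AA and 3, 4 and 1 in shSrsf3 +PDGF-AA samples. The count of 0 allows up to 0.0779 CPM in that library. Without ligand the groups overlapped. With ligand the summed counts were 39 in scramble and 8 in shSrsf3 samples, a ratio of shSrsf3 to scramble of 0.369 per unit of depth (95% interval from 0.149 to 0.801, counting error only). In a fit without the filter its adjusted p was 0.118 for that comparison, so that no difference of *Jag2* was called.

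Of the targets, *Hes1*, *Hey1* and *Hey2* were each lower in shSrsf3 samples in both conditions, and within each condition no shSrsf3 sample reached the lowest scramble sample. *Hes1*, the most abundant target, measured 51.0, 50.8 and 46.5 CPM in scramble samples and 35.1, 36.9 and 33.4 CPM in shSrsf3 samples without ligand. With ligand, it measured 68.4, 71.7 and 67.9 CPM in scramble samples and 55.7, 54.3 and 50.5 CPM in shSrsf3 samples. The log2 (fold change) was -0.49 (SE 0.0526, adjusted p = 5.68e-06) without and -0.37 (SE 0.0521, adjusted p = 6.61e-05) with ligand, and both calls held in each alternative fit apart from the added minimum of 2-fold. The stimulated shSrsf3 samples overlapped with the unstimulated scramble samples.

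*Hey2* measured 8.68, 7.59 and 7.92 CPM in scramble samples and 5.46, 5.10 and 4.403 CPM in shSrsf3 samples without ligand. With ligand, it measured 7.26, 7.82 and 7.50 CPM in scramble samples and 4.49, 5.54 and 3.99 CPM in shSrsf3 samples. The lowest scramble sample thus exceeded the highest shSrsf3 sample in both conditions. The log2 (fold change) was -0.68 (SE 0.106, adjusted p = 1.66e-04) and -0.69 (SE 0.111, adjusted p = 2.41e-04), or 0.625 and 0.622 times the scramble level.

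*Hey1* differed by the largest factor of the 10 genes but was measured with few reads. It had 15, 18 and 37 counts in scramble -PDGF-AA, 5, 10 and 1 in shSrsf3 -PDGF-AA, 27, 26 and 23 in scramble +PDGF-AA and 1, 2 and 1 in shSrsf3 +PDGF-AA samples. In CPM, the scramble samples without ligand were at 0.390, 0.414 and 0.613 and the shSrsf3 samples at 0.0647, 0.152 and 0.0268. With ligand they were at 0.448, 0.461 and 0.356 in scramble and 0.0267, 0.0619 and 0.0322 in shSrsf3 samples, and no sample overlapped in either condition. The fitted log2 (fold change) was -2.42 (SE 0.413, adjusted p = 3.35e-04) without and -3.32 (SE 0.549, adjusted p = 2.76e-04) with ligand. From the summed counts, scramble exceeded shSrsf3 by 5.54 times (95% interval from 3.19 to 10.2) without and by 10.6 times (from 3.96 to 39.8) with ligand, with counting error alone in the interval. Without shSrsf3 -PDGF-AA replicate 2, which holds 10 of the 16 reads of its group, the value without ligand was -3.16 (adjusted p = 2.05e-04). *Hey1* passed the filter through its scramble samples only, since none of the 6 shSrsf3 samples reached the minimum. *Hey1* and *Hey2* are also known from endothelium, whose markers were mixed in direction. Without ligand, *Tek*, which carried the sum, *Erg* (a mean of 3.30 CPM in scramble samples and 0.441 CPM in shSrsf3 samples) and *Pecam1* (0.499 and 0.310 CPM) had lower means in shSrsf3 samples. *Cdh5* and *Kdr*, with the values given for *Notch4*, as well as *Emcn* (0.0543 and 0.221 CPM) and *Esam* (0.00553 and 0.0946 CPM), had higher means there, and *Tie1*, *Sox17* and *Cldn5* were at 0. The part of such cells in these results was not tested.

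*Heyl*, the least abundant target, had 0, 0 and 3 counts in scramble -PDGF-AA, 5, 2 and 3 in shSrsf3 -PDGF-AA, 9, 4 and 4 in scramble +PDGF-AA and 0, 0 and 3 in shSrsf3 +PDGF-AA samples. It did not pass the filter. A count of 0 allows between 0.0689 and 0.0929 CPM in those 4 libraries, so that most of its values were under what the depth can separate from 0. The ratio of shSrsf3 to scramble was 2.63 without ligand (95% interval from 0.677 to 14.9) and 0.318 with ligand (from 0.0596 to 1.10), both from counts of 3 in 1 of the groups and with intervals that include 1.

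**Figure D2:**
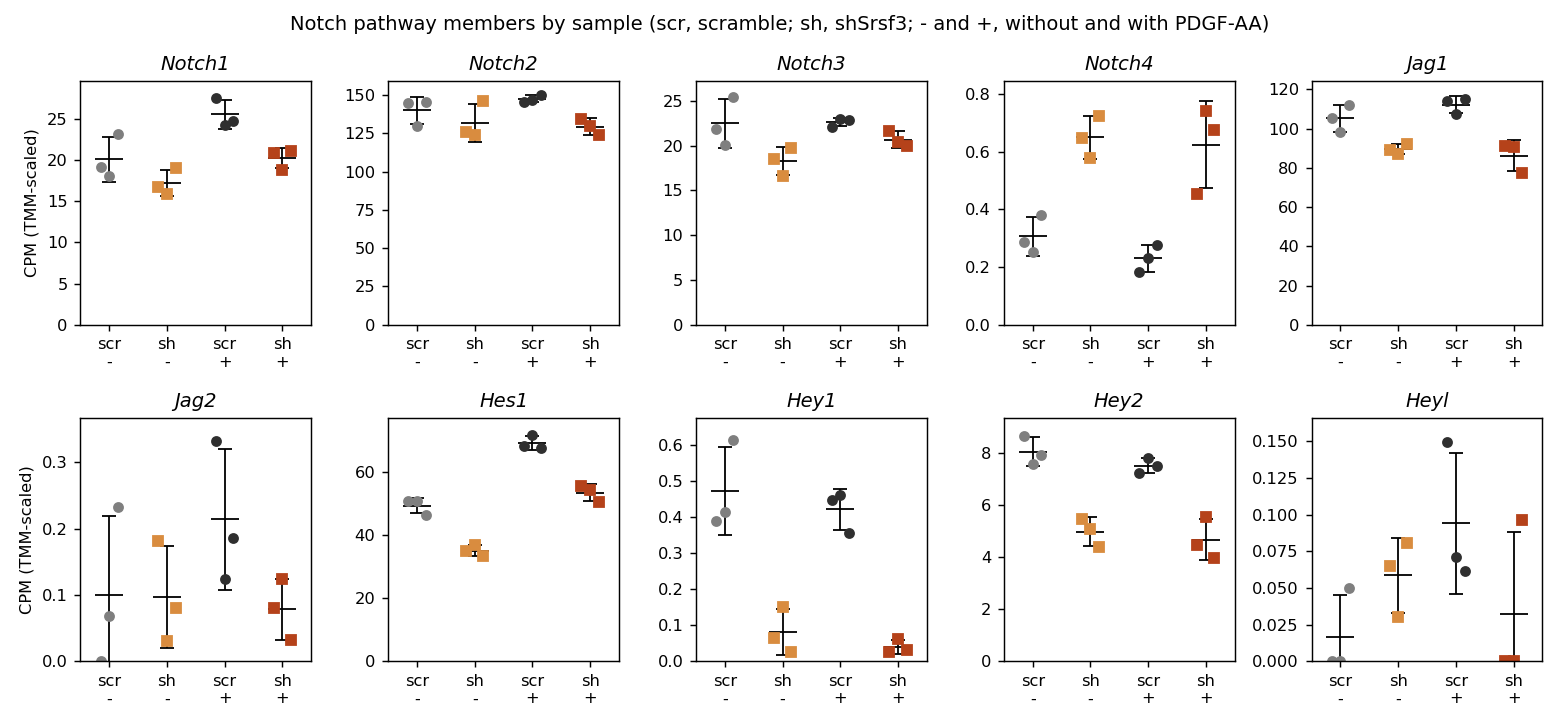
CPM of each of the 10 genes in every sample, with 1 panel per gene and its own axis from 0. Points are samples, horizontal marks are group means, and bars are SD (n = 3). *Hes1*, *Hey1*, *Hey2* and *Jag1* lie lower in shSrsf3 than in scramble samples in both ligand conditions, *Notch4* lies higher, and *Jag2* and *Heyl* rest on at most 20 counts in a sample.

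In all, 7 of the 8 tested genes differed between shSrsf3 and scramble samples without ligand (1 higher, 6 lower), where 45.9% of all tested genes did. With ligand it was again 7 of 8 (1 higher, 6 lower), with 41.0% of all genes. The genes were not the same, since *Notch3* was called without ligand only and *Notch2* with ligand only. The other 6 were called in both, with the same sign each time. *Hey1* could be tested only because of its scramble samples, and without it the count was 6 of 7 in each condition. Given this background, a call alone does not set these genes apart. The lower calls made up 23.7% and 20.7% of all genes and the higher calls 22.2% and 20.3%, and a fold change of 2 or more was reached by *Notch4* and *Hey1* in both conditions, against 5.75% and 5.42% of all genes. Groups without overlap were seen for 6 of the 8 genes without ligand and for all 8 with ligand, against 53.3% and 52.6% of all tested genes. *Hey1* is also among the genes with a fold change of 2 or more and among those without overlap. These counts therefore carry the same limit as the count of calls.

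**Figure D3:**
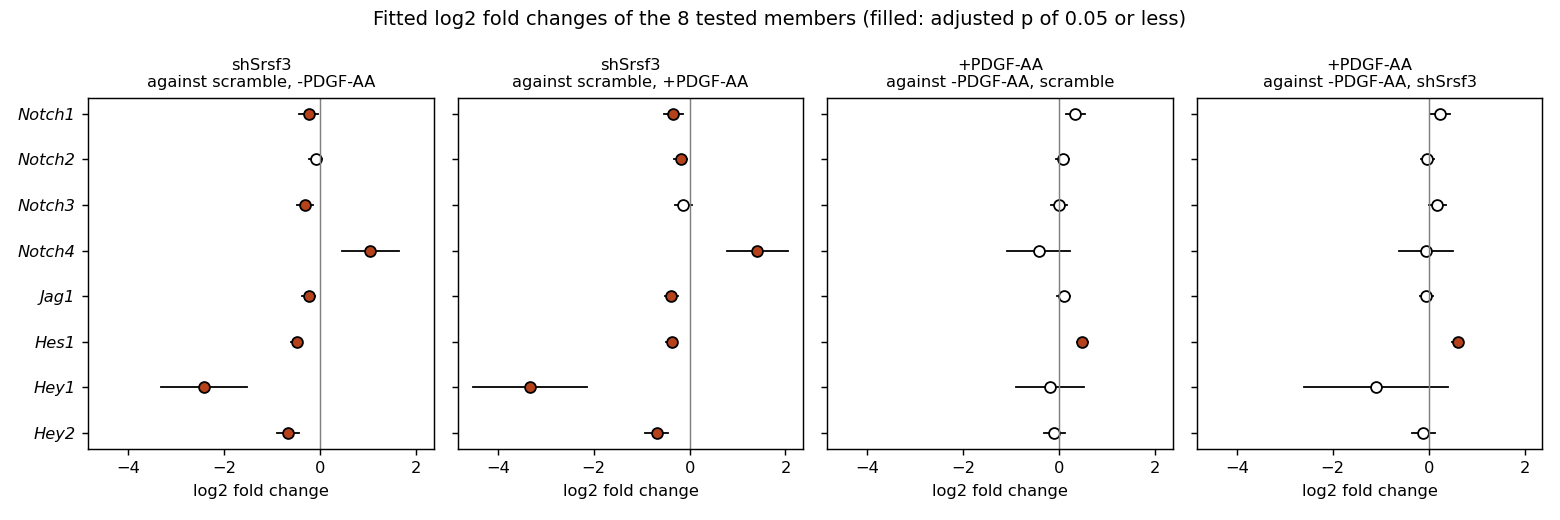
Fitted log2 (fold change) of the 8 tested genes in the 4 comparisons, with 95% intervals as bars. Filled points have an adjusted p of 0.05 or less. Only *Hes1* is filled in the 2 comparisons of +PDGF-AA with -PDGF-AA, at 0.49 in scramble and 0.61 in shSrsf3 cells.

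Stimulation for 1 hr was compared within each line, and each group of samples also entered a comparison above. *Hes1* rose in both lines and was the only one of the 8 tested genes to do so, where 4.04% of all tested genes differed in scramble and 0.565% in shSrsf3 cells (2.0% and 0.426% were higher). From the values above, every stimulated sample exceeded every unstimulated sample of its line. The log2 (fold change) was 0.49 (SE 0.0518, 95% interval from 0.38 to 0.60, adjusted p = 1.28e-04) in scramble cells, from 49.5 ± 2.52 to 69.3 ± 2.10 CPM (SD, n = 3). In shSrsf3 cells it was 0.61 (SE 0.0530, interval from 0.49 to 0.72, adjusted p = 1.06e-04), from 35.1 ± 1.74 to 53.5 ± 2.70 CPM. By p-value, *Hes1* ranked at position 33 of 15037 genes in scramble and at position 4 in shSrsf3 cells. The rise stayed below 2-fold, with 1.403 and 1.52 times the unstimulated level.

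*Notch1* lay just beyond the threshold in scramble cells. Its log2 (fold change) was 0.34 (SE 0.0895, adjusted p = 0.0516), and all 3 stimulated samples were above all 3 unstimulated ones. It passed without scramble -PDGF-AA replicate 3 (0.47, adjusted p = 0.00396), without a filter on low counts, with DESeq2 (adjusted p = 0.0104) and with limma-voom (0.0464). With 1 sample left out, the value was between 0.26 and 0.47, with an edgeR adjusted p of up to 0.208. Under the other settings it was between 0.17 and 0.35. The lowest of these came without the 3 scramble libraries with the lowest share of mapped reads, which leaves 1 scramble -PDGF-AA sample. In shSrsf3 cells the value was 0.24 (SE 0.0940, adjusted p = 0.405), and the groups overlapped. Groups without overlap were seen for *Hes1* and *Notch1* in scramble cells and for *Hes1* and *Notch3* in shSrsf3 cells, 2 of 8 each, against 18.8% and 18% of all tested genes.

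For the remaining tested genes, no change with ligand was called, and the intervals bound what could have been missed. In scramble cells, the value of *Jag1* was 0.09 (interval from -0.04 to 0.23), that of *Notch2* 0.07 (from -0.06 to 0.21), that of *Notch3* 0.00 (from -0.16 to 0.17) and that of *Hey2* -0.10 (from -0.32 to 0.12) on the log2 scale. The intervals of *Notch4* (from -1.08 to 0.23) and *Hey1* (from -0.91 to 0.53) were wider. In shSrsf3 cells, *Notch3* had a value of 0.18 (from 0.01 to 0.36, adjusted p = 0.504), *Jag1* of -0.05 (from -0.19 to 0.08), *Notch2* of -0.03 (from -0.16 to 0.11) and *Hey2* of -0.11 (from -0.35 to 0.14). *Hey1*, with 16 and 4 reads in the 2 groups, had an interval from -2.59 to 0.41.

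The interaction asks whether the response to ligand differed between shSrsf3 and scramble cells. None of the 8 genes passed (edgeR, 0 at an unadjusted p under 0.05 as well, and 0 with DESeq2 and limma-voom), where 0.0133% of all tested genes passed and 5.54% had such an unadjusted p. The difference between the responses of *Hes1* was 0.12 on the log2 scale (95% interval from -0.04 to 0.28, adjusted p = 0.874). For *Jag1* it was -0.15 (from -0.34 to 0.04), for *Notch3* 0.18 (from -0.06 to 0.42), for *Notch2* -0.10 (from -0.29 to 0.09) and for *Notch1* -0.10 (from -0.38 to 0.18). The design therefore leaves room for differences of about this size, and of more for *Notch4* (from -0.50 to 1.24) and *Hey1* (from -2.56 to 0.76).

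How each family was made up was described by the share of each gene in the summed per-length level of its family. The shares within a family add up to its whole. A higher share of 1 gene therefore means lower shares of others, and the tests within a family are not independent results. The 9 shares were compared between shSrsf3 and scramble samples within ligand condition by a two-sided exact permutation test of 400 arrangements. *Notch2* made up most of the receptor RNA, with 72.9 ± 1.77% in scramble -PDGF-AA and 74.9 ± 0.672% in shSrsf3 -PDGF-AA samples (n = 3, SD). The difference of shSrsf3 from scramble over both conditions was 1.16 points and did not pass (exact p = 0.08, 0.12 adjusted over the 9 shares). *Notch4* made up 0.252 ± 0.0379% and 0.587 ± 0.0240% in these groups and 0.178 ± 0.0357% and 0.556 ± 0.148% with ligand. Its share was higher in shSrsf3 samples by 0.356 points (exact p = 0.005, the smallest that these arrangements can give, adjusted 0.0225). Neither *Notch1*, with a difference of -1.01 points (exact p = 0.05, adjusted 0.09), nor *Notch3*, with -0.512 points, passed after adjustment (exact p = 0.325, adjusted 0.418 for *Notch3*).

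Among the targets, *Hes1* took up 84.6 ± 1.03% in scramble -PDGF-AA and 86.6 ± 1.00% in shSrsf3 -PDGF-AA samples, and 89.1 ± 0.122% and 91.4 ± 1.14% with ligand. Its share was thus higher in shSrsf3 samples by 2.11 points (exact p = 0.01, adjusted 0.03), although its own level was lower there. *Hey2* took up 14.8 ± 0.929% and 13.2 ± 1.00% without and 10.4 ± 0.197% and 8.56 ± 1.15% with ligand, lower by 1.74 points (exact p = 0.02, adjusted 0.045). *Hey1* took up 0.582 ± 0.180% and 0.139 ± 0.105% without and 0.387 ± 0.0466% and 0.0489 ± 0.0218% with ligand, lower by 0.390 points (exact p = 0.005, adjusted 0.0225). This share rests on at most 10 counts in a shSrsf3 sample, and *Hey1* passed the filter through its scramble samples only. It uses the same counts as the fold change above and adds no separate support to it. The share of *Heyl* differed by 0.0165 points (exact p = 0.615, adjusted 0.615). *Jag1* held between 99.79% and 99.90% of the *Jag1* and *Jag2* RNA in the group means, and its share differed by 0.0464 points (exact p = 0.42, adjusted 0.473).

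The other parts of the pathway were examined in a list of 68 genes, of which 59 were tested. Of these, 29 differed between shSrsf3 and scramble samples without ligand (11 higher, 18 lower) and 32 with ligand (15 higher, 17 lower), or 49.2% and 54.2% against 45.9% and 41.0% of all genes. The median log2 (fold change) of the list was -0.02 and -0.03, beside -0.02 and -0.01 over all tested genes. The counts by role that follow stand beside the same shares of all genes, and no role was tested as a set.

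Of the ligands, *Dll1* and *Dlk1* were lower in both conditions and were DE in both, while the third tested ligand was not called. *Dlk1*, a noncanonical ligand of the Delta type, measured 19.1, 18.9 and 15.3 CPM in scramble samples and 6.66, 5.998 and 6.93 CPM in shSrsf3 samples without ligand, with a log2 (fold change) of -1.45 (SE 0.0891, adjusted p = 2.80e-08) and of -1.51 (SE 0.0933, adjusted p = 3.15e-08) with ligand. *Dll1*, a canonical Delta ligand, rested on few reads and passed the filter only through its scramble samples, since 1 of the 6 shSrsf3 samples reached the minimum. It had 13, 31 and 41 counts in scramble -PDGF-AA, 13, 8 and 2 in shSrsf3 -PDGF-AA, 24, 19 and 26 in scramble +PDGF-AA and 3, 3 and 7 in shSrsf3 +PDGF-AA samples. Its log2 (fold change) was -2.21 (SE 0.407, adjusted p = 6.03e-04) without and -1.53 (SE 0.467, adjusted p = 0.0176) with ligand. The latter call was lost without shSrsf3 +PDGF-AA replicate 1 (adjusted p = 0.0929) or replicate 2 (0.0759), and the value without ligand was -3.36 at equal depth.

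Among 8 tested genes of receptor glycosylation, 3 were higher (*Eogt*, *Gxylt1* and *Rfng*) and 2 lower (*Lfng* and *Poglut1*) in both conditions. The *Lfng* call without ligand (-0.21, adjusted p = 0.0259) was lost without scramble -PDGF-AA replicate 2 or 3 or shSrsf3 -PDGF-AA replicate 2 or 3 (adjusted p between 0.0607 and 0.0956), without the 3 libraries of lower mapping rate (0.0798) and at equal depth (0.0642). *Rfng* encodes Radical fringe, one of the 3 Fringe enzymes that extend the O-fucose sugar of Notch receptors and so alter their response to ligands. It measured 8.91, 8.57 and 8.503 CPM in scramble samples and 23.5, 22.2 and 22.2 CPM in shSrsf3 samples without ligand. With ligand it measured 6.98, 8.19 and 8.32 CPM in scramble samples and 22.02, 23.4 and 23.04 CPM in shSrsf3 samples. The groups were far apart, with a log2 (fold change) of 1.39 (SE 0.0630, adjusted p = 1.55e-09) and 1.54 (SE 0.0637, adjusted p = 7.47e-10), or 2.62 and 2.92 times the scramble level. *Eogt*, which adds O-GlcNAc to Notch receptors, was higher by 0.40 (SE 0.0410) and 0.34 (SE 0.0412).

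Of 11 tested genes of ligand endocytosis and receptor trafficking, 2 were higher and 2 lower without and 4 were higher and 1 lower with ligand. *Mib1* and *Neurl1a* encode ubiquitin ligases that act on Notch ligands. *Mib1* rose from 93.2 ± 6.81 to 137 ± 1.82 CPM (SD, n = 3) without ligand, a log2 (fold change) of 0.56 (SE 0.0519, adjusted p = 1.47e-06), and by 0.48 (SE 0.0519) with ligand. *Neurl1a* rose by 0.60 (SE 0.0851, adjusted p = 7.45e-05) and 0.82 (SE 0.0866, adjusted p = 5.14e-06). Of the sequences of 31 bases of *Neurl1a*, 8.36% occur in other genes.

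Of 10 genes of proteolysis, 1 was higher and 4 lower without and 2 were higher and 5 lower with ligand, *Adam10* and *Adam17* among the lower ones each time. *Aph1b* and *Aph1c*, subunits of γ-secretase, had values of -0.39 and -0.62 (*Aph1b*, both called) and of -0.29 (*Aph1c*, adjusted p = 0.344) and -1.07 (adjusted p = 0.00491). Of their sequences of 31 bases, 10.8% and 17.8% occur in other genes, mainly in each other, so that the division of reads between them is uncertain. The same share was 39.7% for *Aph1a*, called higher in both conditions, and 13.9% for *Psenen*, called lower without ligand. Their counts are less certain as well. Of 10 genes of the nuclear complex, 6 differed without ligand and 5 with ligand, of which *Maml1* and *Rbpj* were higher each time. Of the sequences of 31 bases of *Rbpj*, 11.5% occur in other genes, *Rbpj-ps3* and *Rbpj-ps1* among them, so that its counts are less certain. *Maml1*, a Mastermind coactivator, was higher by 0.43 in both conditions (SE 0.0342 and 0.0343), while *Maml2* (-0.19 and -0.22) and *Maml3* (-0.85 and -0.55) were called lower. *Rbpj*, *Maml2* and *Maml3* are named after their values were seen. Among 9 corepressors, 3 were called in each condition (2 higher, 1 lower), and among 8 other targets and Hes family genes, 4 and 5, with *Hes6*, *Id1* and *Id3* lower in both. Beside these counts by role, 45.9% of all tested genes were called without and 41.0% with ligand. Genes named without values in these counts are given to identify the members of small groups.

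**Figure D4:**
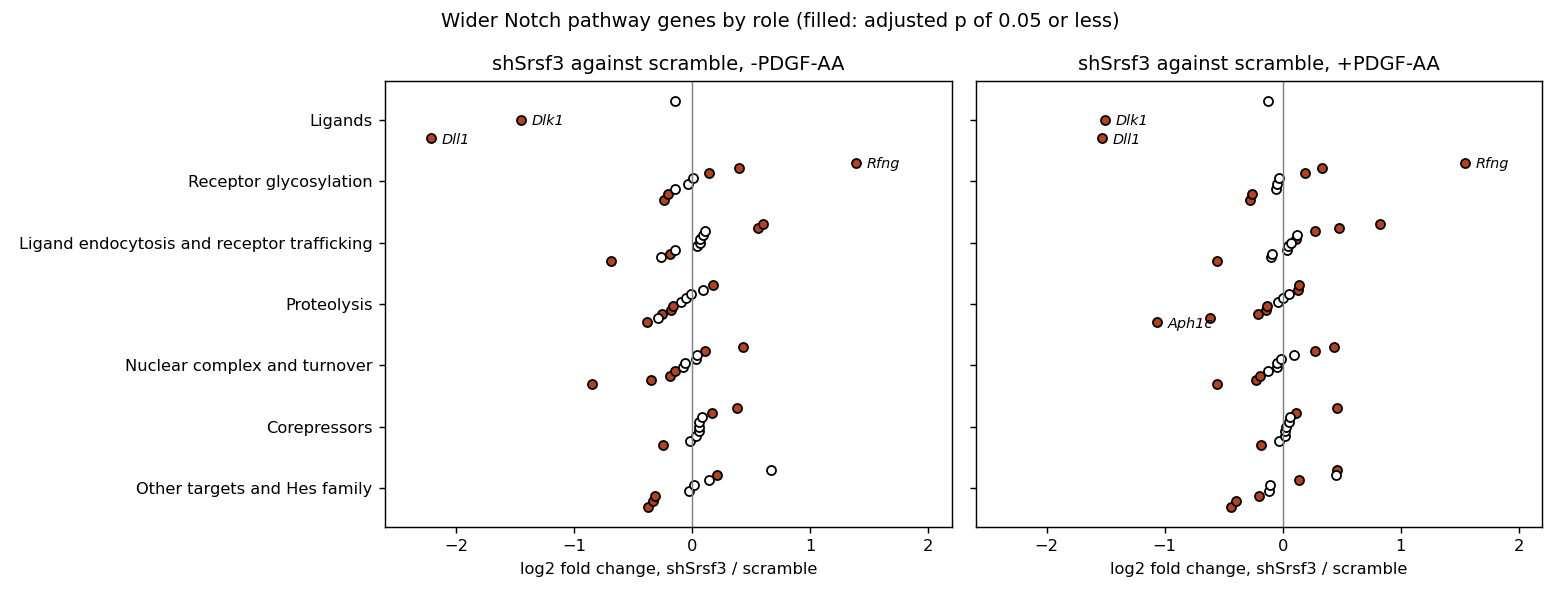
Fitted log2 (fold change) between shSrsf3 and scramble samples for the 59 tested genes of the wider pathway list, by role, without ligand on the left and with ligand on the right. Filled points have an adjusted p of 0.05 or less, and names mark genes with a fitted change of at least 2-fold. *Rfng* lies at 1.39 and 1.54, and *Dlk1* and *Dll1* lie to the left of -1.4 in both.

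With stimulation, 3 genes of the list were called in scramble cells (4.04% of all genes were) and 2 of them also in shSrsf3 cells (0.565%). These genes are named because of their small number, after their values were seen. *Bhlhe40*, a helix-loop-helix repressor, rose from 58.5 ± 3.84 to 107 ± 3.14 CPM in scramble cells (SD, n = 3) by 0.87 (SE 0.0781, adjusted p = 3.10e-05) and by 0.73 (SE 0.0784, adjusted p = 5.19e-04) in shSrsf3 cells. *Lfng*, which encodes Lunatic fringe, measured 19.3, 20.2 and 20.3 CPM without and 27.8, 29.1 and 30.9 CPM with ligand in scramble cells, a log2 (fold change) of 0.55 (SE 0.0675, adjusted p = 4.38e-04). In shSrsf3 cells it rose from 17.9, 17.3 and 16.4 CPM to 26.1, 25.03 and 21.05 CPM, by 0.48 (SE 0.0702, adjusted p = 0.00610). *Tle1*, a Groucho corepressor, fell by 0.24 on the log2 scale (SE 0.0467, adjusted p = 0.0121) in scramble cells, a call that was lost without scramble -PDGF-AA replicate 1 (adjusted p = 0.0519) or scramble +PDGF-AA replicate 3 (0.0518), with the 6 samples of the comparison alone (0.102) and without the 3 libraries of lower mapping rate (0.0851). No gene of the list passed for the interaction (edgeR; 9 had an unadjusted p under 0.05, and DESeq2 and limma-voom also called 0).

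For each tested gene, the gene with the most similar profile of log2 CPM over the 12 samples was sought among all tested genes. These correlations describe points that share 4 groups and 2 cell lines, and carry no test. The nearest gene to *Hes1* was *Spty2d1* (Pearson r = 0.966), to *Hey1* it was *1600014C10Rik* (0.988), and to *Hey2* it was *Igf1* (0.984). For the receptors they were *Ice1* (*Notch1*, 0.968), *Cacna1c* (*Notch2*, 0.947), *Rptor* (*Notch3*, 0.899) and *Slc9a5* (*Notch4*, 0.964), and for *Jag1* it was *Slc44a1* (0.977). None of these was another gene of the family.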

How the data were processed

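RNA-seq of polyA RNA was available for 12 iMEPM samples, assigned to the 4 groups and to replicates 1 to 3 by their labels. After trimming with BBDuk, the authors estimated transcript abundance with Salmon (v1.4.0), using GENCODE M26 of GRCm39, and summed it per gene with tximport. The deposited values are expected counts, which estimate how many fragments came from a gene and are not scaled to library size. How tximport scaled the counts is not given in the sources used here. Of the deposited values, 16.3% were not whole, and all were rounded here.

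Genes were filtered with filterByExpr (minimum count 10) in edgeR 4.0.16 and scaled by TMM (factors 0.983 to 1.02). The quasi-likelihood test was run on 15037 genes in 1 model of 12 samples, with Benjamini-Hochberg adjustment over all of them. Calls required an adjusted p no higher than 0.05, and DE genes also a fold change of at least 2, after the thresholds of the study's methods. SE was derived from the F statistic. The p-values rest on the spread between samples within groups, pooled over the 4 groups of the model and moderated across genes. This spread holds no variation between cell lines, since each shRNA was represented by 1 line. Counts of replicates differed beyond Poisson noise in every pair (chi-square per degree of freedom of 4.21 or more). That value reached 33.8 for scramble -PDGF-AA replicates 2 and 3 and 24.0 for scramble +PDGF-AA replicates 1 and 2. In pairs of shSrsf3 samples it was at most 8.80. On simulated counts for the comparison without ligand (14814 genes), 20.8%, 63.3%, 85.4% and 94% of changes of 0.25, 0.5, 1 and 2 on the log2 scale were recovered. In that simulation 48 to 50 genes were changed at each size, while 45.9% of all tested genes were called in the data. The adjusted p depends on that share, so these recoveries do not measure the power of the real comparison. Intervals of summed counts are exact (Clopper-Pearson, 95%), and a count of 0 was taken to allow 3 counts. Both cover counting error only.

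Alternatives were DESeq2 1.42.0, limma-voom (limma 3.58.1), RLE size factors, no filter, the replicate number as a block, the 6 samples of a comparison alone, equal depth, and leaving out each sample or the 3 libraries of lowest Salmon mapping rate (3 scramble samples, namely replicates 1 and 2 without and replicate 2 with ligand). Gene positions, transcript lengths and promoter windows were read from GENCODE M39, which is a later release on the same build (GRCm39). The 10 genes, the wider list and the marker lists were chosen with earlier results of these data known. All 10 genes were named, as were genes of the wider list that were DE in any comparison, among the 5 smallest p-values of a comparison of shSrsf3 with scramble, or called for the interaction.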

Additional observations from a re-analysis of the deposited data

How the results depend on the processing

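Of the values of the 8 tested genes, most kept their direction and their side of the threshold. With one sample left out, 451 did, 16 changed sign, 11 lost and 2 gained a call, and under the other settings 297 did, 4 changed sign, 5 lost and 5 gained a call. The calls of *Hes1*, *Hey1*, *Hey2* and *Jag1* between shSrsf3 and scramble samples, and of *Hes1* with ligand, held in every fit that kept the threshold on adjusted p alone. With a fold change of 2 or more in addition, the genes called fell to 2 and 2 of 8 for shSrsf3 against scramble without and with ligand and to 0 for stimulation in either line, and those of the wider list to 3, 4, 0 and 0. For stimulation of scramble cells, 2 of 8 genes (*Hes1* and *Notch1*) in place of 1 were called with no filter, with the replicate block, with limma-voom and with DESeq2, and 1 to 2 with one sample left out. The wider list had 6 calls there with no filter, 5 with the replicate block and 2 to 5 with one sample left out. In shSrsf3 cells 2 of 8 were called with no filter. That fit gave *Notch1* a far smaller adjusted p at nearly the same log2 (fold change). It was 2.74e-06 against 0.0516 in the main fit in scramble cells, and 0.0238 against 0.405 in shSrsf3 cells. Why the p-values of the fit without a filter were smaller was not tested. The replicate numbers did not pair the samples (correlations of deviations between -0.14 and 0.20, and not every sample correlated best with its own number), and the block changed no other count of calls by more than 1.5 times.

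Changes of sign concerned values near 0 that were not called. For stimulation of scramble cells, *Notch3* was at -0.18 without the 3 libraries of lower mapping rate, at -0.0101 at equal depth, and between -0.0712 and 0.12 with one sample left out, and *Hey1* was between -0.30 and 0.0758. In shSrsf3 cells, *Notch4* was at 0.14 at equal depth and between -0.20 and 0.14, *Notch2* between -0.0716 and 0.0534, and *Jag1* between -0.0914 and 0.0213 with one sample left out. The interaction was 0.0733 for *Notch1* without those 3 libraries and between -0.15 and 0.0857 for *Hey2* with one sample left out. With one sample left out, the difference in share was between -1.24 and -0.721 points for *Notch1* (exact p between 0.01 and 0.13), between 0.662 and 1.496 points for *Notch2* (0.045 to 0.195) and between -0.00142 and 0.0279 points for *Heyl*. The cause of these shifts was not tested. Depth limits *Hey1*, *Notch4*, *Jag2* and *Heyl*, with at most 50 counts in a sample.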
